A study of Mus musculus with 6 samples.

Results

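The 43 genes described here encode subunits, activators and assembly factors of the proteasome. They are all genes of the deposited expression table whose symbol is Psm followed by a letter from a to g and a number, leaving out the immunoproteasome subunits Psmb8, Psmb9 and Psmb10, and they were drawn from 14408 listed genes. Of the 43, 14 form the core particle (7 Psma and 7 Psmb genes), 20 belong to the regulatory particle or its assembly (6 Psmc and 14 Psmd genes), 4 are Psme activators and 5 are the assembly chaperones Psmg1 to Psmg4 with the regulator Psmf1. The rule itself uses symbols and no measured value, but it was set with earlier results of these data known.

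The libraries compared came from mice given L-proline, 3 libraries, and from mice given PBS, 3 libraries. All were male C57BL/6J mice, 8 weeks old when housed for the study, in which heart failure with preserved ejection fraction had been modelled by a high-fat diet together with L-NAME, a nitric oxide synthase inhibitor, at 0.5 g/L in the drinking water for 8 to 12 weeks, so that the PBS mice carried the diet and L-NAME too. L-proline was injected intraperitoneally at 300 mg/kg per day for 4 to 8 weeks. The stated interest was in how L-proline bears on ferroptosis and on PPARγ signalling. The labels do not say that each library came from its own animal, so the p-values rest on a spread between libraries that may be technical.

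The tissue was labelled as heart, from left ventricle. Of 13 heart muscle cell markers, 7 were listed and 2 reached a mean of 1 FPKM (fragments scaled to the length of the gene and the size of the library), and for the sarcomere and calcium release genes Ttn, Ryr2, Myl2, Myh7 and Tnni3 the highest value of all was 0.212 FPKM. Tnnt2, which made up most of what remained of that list, averaged 14.5 ± 1.51 FPKM in L-proline and 32.0 ± 0.777 FPKM in PBS (log2 fold change -1.09; limma, adjusted p = 0.000326), and the listed markers together summed to 16.8 to 19.96 FPKM in L-proline and 34.8 to 36.5 FPKM in PBS. The part of this difference in the results below was not tested. Defining genes such as Myh6, Actc1 and Mybpc3 were not listed. Of 8 fibroblast markers 6 were listed, all with a mean of at least 1 FPKM, and Lum and Tcf21 were not listed. The fibroblast collagen gene Col3a1 averaged 1824 ± 150.1 FPKM in L-proline and 1226 ± 18.5 FPKM in PBS (SD, n = 3 each). Of 6 pericyte and smooth muscle markers 5 were listed, 3 with a mean of at least 1 FPKM. The 5 summed to 846 to 1042 FPKM in L-proline and 938 to 1051 FPKM in PBS. Most of that sum was Acta2, which averaged 826 ± 86.0 FPKM in L-proline and 850 ± 51.6 FPKM in PBS. Of 5 endothelial markers 3 were listed, summing to 0.136 to 0.269 FPKM in L-proline and 0.150 to 0.302 FPKM in PBS. The proteasome values below are therefore those of RNA with few heart muscle and endothelial marker transcripts. The labels do not settle which cells of the ventricle gave this RNA, and its source was not tested. In bulk RNA, fewer cells of a type and less RNA per cell cannot be told apart. Library totals recovered from the table ran from 34990473 to 37498030 fragments.

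The proteasome degrades proteins that carry ubiquitin chains. Its barrel-shaped core particle has outer rings of alpha subunits (Psma) and inner rings of beta subunits (Psmb), 3 of which (Psmb5, Psmb6 and Psmb7) cut peptide bonds. The regulatory particle caps the barrel: its ATPases (Psmc) unfold the substrate, and its other subunits (Psmd) bind and remove ubiquitin. Activators of the Psme family can cap the core instead. Interferon is known to raise Psme1 and Psme2, which together form the ring PA28, and the immunoproteasome subunits Psmb8, Psmb9 and Psmb10, which take the places of Psmb5, Psmb6 and Psmb7.

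Psme1 and Psme2 lie close together on mouse chromosome 14, with Emc9 between them, and their promoters are shown because Psme2 had the largest log2 fold change of the 43 genes and Psme1 encodes its partner. Each sequence covers 250 bases before to 50 after the RefSeq start site in build GRCm38.p6, which is not the build in the submitters' notes. Capitals mark matches, on either strand, to the core of the interferon-stimulated response element, which is GAAA, any 2 bases and GAAA again.
Psme1, chr14:55578244-55578543, plus strand: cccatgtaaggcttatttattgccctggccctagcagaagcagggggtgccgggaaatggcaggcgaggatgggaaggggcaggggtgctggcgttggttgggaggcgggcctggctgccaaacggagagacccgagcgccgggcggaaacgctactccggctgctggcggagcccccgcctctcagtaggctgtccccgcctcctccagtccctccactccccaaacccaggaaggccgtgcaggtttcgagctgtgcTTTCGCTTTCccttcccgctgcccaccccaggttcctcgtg
Psme2, chr14:55591052-55591351, minus strand: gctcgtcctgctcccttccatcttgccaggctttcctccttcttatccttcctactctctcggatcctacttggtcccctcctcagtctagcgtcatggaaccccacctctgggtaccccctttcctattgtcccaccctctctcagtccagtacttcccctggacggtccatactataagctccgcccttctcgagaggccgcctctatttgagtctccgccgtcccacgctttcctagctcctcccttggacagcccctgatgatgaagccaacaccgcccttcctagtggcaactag

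The Psme1 window held 1 match and the Psme2 windows held 0, also in the second Psme2 start site of the table, which overlaps the first. Of the 43 genes, 36 had a promoter in the RefSeq table, and 5 of these 36 (13.9%) held the motif in at least 1 promoter, against 3.99% of all 27025 genes in the table. Counted per promoter, 3.44% of all 32851 held it. The other carriers were Psmb3, Psmd4, Psmd9 and Psmg4, and their matches with 10 bases on either side are shown on the strand that reads GAAA first, to compare them with that of Psme1.
Psme1, chr14:55578493-55578522, minus strand: agcgggaaggGAAAGCGAAAgcacagctcg
Psmb3, chr11:97703261-97703290, minus strand: atggaaagcgGAAAGTGAAAagtcactgtg
Psmg4, chr13:34162969-34162998, plus strand: gcgcgcatctGAAAGTGAAAgagcgttccg
Psmd4, chr3:95042675-95042704, plus strand: aggcgccacaGAAATGGAAAggttggttat
Psmd9, chr5:123228021-123228050, plus strand: gggacagaatGAAAAAGAAAggaatgaaca

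Psmb3 and Psmg4 carried the same 10 letters. A match is a description of the letters and not a bound site, and of these 5 carriers 0 passed the test described next. The element TGACNNNGC, read by the stress factors NFE2L1 and NFE2L2, was found in 6 of 36 (Psmb5, Psmb6, Psmc6, Psmd12, Psmd9 and Psme4; 16.7%), against 14% of all genes. TTCNNNGAA, a STAT site, was found in 2 of 36 (Psmd2 and Psmg1; 5.56%), against 9.55%, and CCAAT in 12 of 36 (33.3%), against 41.1%. All motifs were searched on both strands, and a promoter could hold several.

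L-proline was accompanied by higher levels of 4 proteasome genes and a lower level of 1. The medians of the 14 core genes and of the 20 regulatory particle genes differed by less than the spread between libraries. Without Psmd5, Psmd9 and Psmd10 the regulatory particle median was 71.8 ± 1.42 FPKM in L-proline and 66.4 ± 5.25 FPKM in PBS (SD). That of the 6 ATPase genes was 79.0 ± 5.36 FPKM in L-proline and 65.5 ± 6.65 FPKM in PBS. Both of these differences were larger than the SD of either group. For the first, L-proline 3 at 70.3 FPKM still lay below PBS 2 at 72.2 FPKM. The median log2 fold change was 0.047 for those 17 genes and 0.076 for the 6 ATPase genes, and 0 genes of either set rose. The activator Psme2, the core subunit Psma4 and the assembly chaperones Psmg1 and Psmg2 rose, and the regulatory particle subunit Psmd8 fell. The other 38 did not pass (limma on log2(FPKM + 1), Benjamini-Hochberg over 10500 genes with a mean of at least 1 FPKM, threshold 0.05). All 43 had a mean above that limit, so none was left out by it. The share called was 11.6% of the 43, against 19.6% of all genes tested. In the upward direction it was 4 of 43 (9.3%), against 7.5% of all genes, and in the downward direction 1 of 43 (2.33%), against 12.1%. The upward share was thus near the background and the downward share below it. The groups did not overlap for 8 of the 43 (18.6%), 7 higher and 1 lower in L-proline. Over all genes tested the groups did not overlap for 40.1%, with 16% higher and 24% lower.

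The calls depended on single libraries. The count of higher genes was 1, Psme2, without PBS 1 and also without PBS 3, 2 without L-proline 2 and 6 without L-proline 1. The share of all genes called in either direction moved with it, to 9.31% without PBS 1, 8.34% without PBS 3, 14.6% without L-proline 2 and 26.4% without L-proline 1. The count of lower genes was 0 without L-proline 2, PBS 1, PBS 2 or PBS 3 and 2 without L-proline 1. Weighting the libraries by their fit to the groups gave 19 higher and 1 lower, against 17.1% higher, 27.4% lower and 44.5% in either direction of all genes.

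The direction of small differences was mostly upward: 32 of 43 had a positive log2 fold change, against 40.6% of all genes tested, and the median was 0.06 against -0.06. The median of the 43 was 0.13 without L-proline 1, 0.125 without PBS 2 and 0.033 without L-proline 2 or without PBS 1. It was 0.12 with median-of-ratios scaling, 0.095 with voom and 0.16 with sample weights. With median-of-ratios scaling 34 of 43 were positive, against 48.4% of all genes, whose median was -0.0098. With quantile normalization 32 of 43 were positive, with a median of 0.062, against 50.1% of all genes, whose median was 0.00044. The positive count was lowest without L-proline 2, at 27 of 43 (38.7% of all genes). It was highest with sample weights, at 37 of 43 (42.7% of all genes). Dividing the libraries by median-of-ratios size factors turned the split of calls over all genes to 1007 higher and 965 lower, where the deposited scale gave 788 higher and 1268 lower. Of the proteasome genes, that scaling gave 7 higher and 0 lower, against 9.59% and 9.19% of all genes. The call of Psmd8 ended there, and Psme1, Psmc5 and Psmd6 were added.

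**Figure D1:**
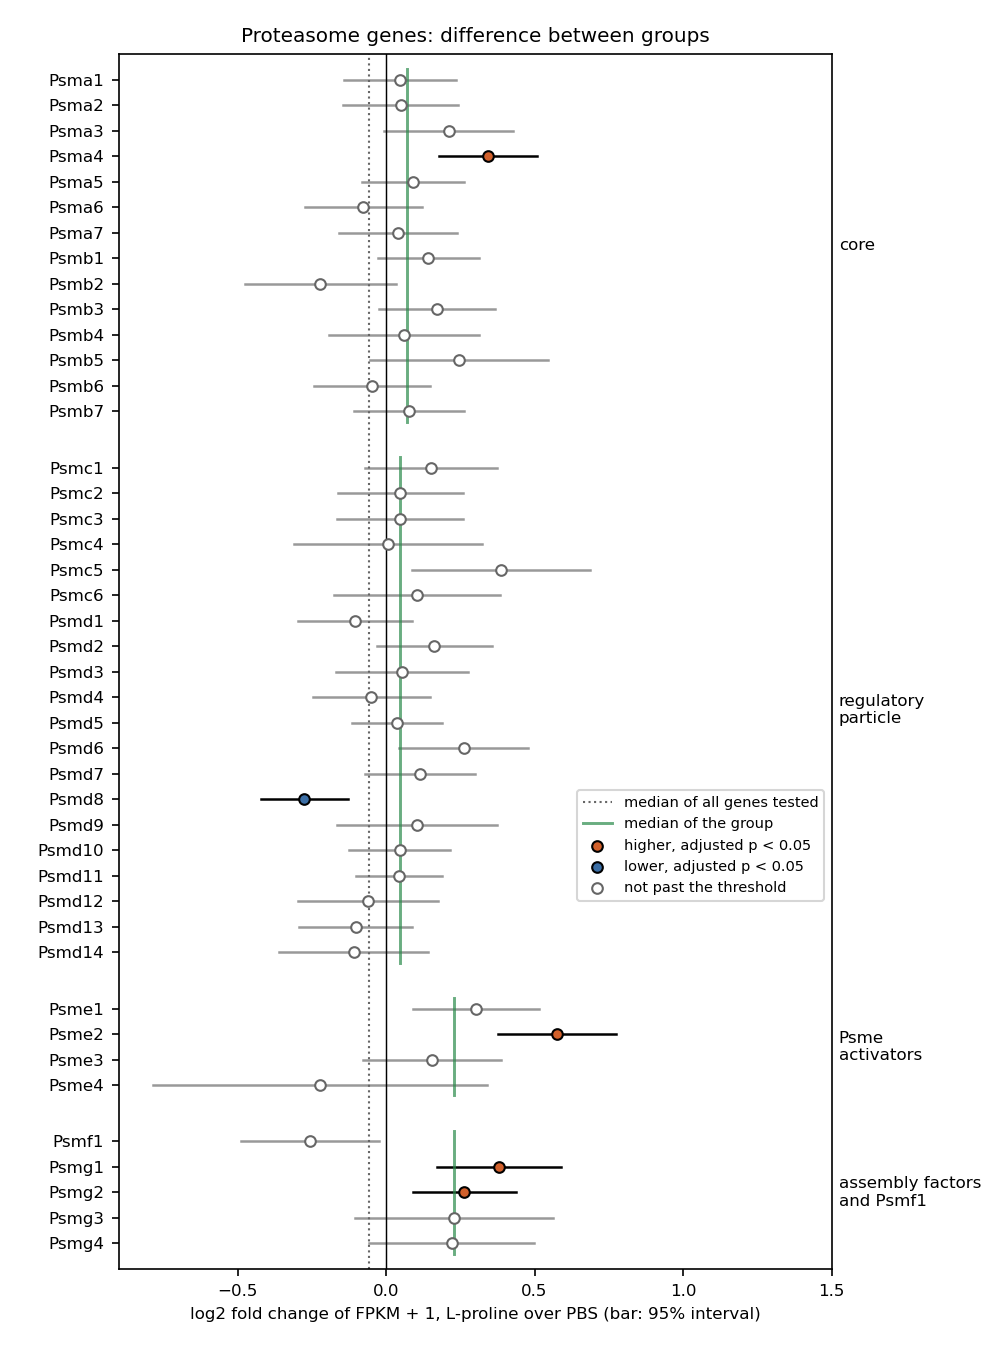
Log2 fold change of each proteasome gene (L-proline over PBS, log2 of FPKM + 1) with its 95% interval from limma, by group of genes; filled points passed an adjusted p of 0.05. Psme2 lies farthest to the right at 0.58, and most core and regulatory particle genes lie within 0.2 of zero.

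Of the core particle, 1 of 14 genes rose and 0 fell. Psma4, an alpha-ring subunit, had 95.5, 104 and 101 FPKM in L-proline 1, 2 and 3, against 73.5, 83.0 and 79.7 FPKM in PBS 1, 2 and 3. Every L-proline library lay above every PBS library. The log2 fold change was 0.34 ± 0.07 (SE; limma, adjusted p = 0.0144). Without PBS 1 the adjusted p was 0.0711, and without PBS 3 it was 0.0642.

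The other core genes showed no such separation. The median core gene stood at 95.6, 105 and 108 FPKM in L-proline 1, 2 and 3, against 92.8, 105 and 96.8 FPKM in PBS 1, 2 and 3, so the groups overlapped. The 13 genes that did not pass had log2 fold changes whose 95% intervals lay between -0.48 and 0.55, a width within which a moderate change cannot be told from none. The most abundant was Psmb1, a beta-ring subunit, at 223, 249 and 243 FPKM in L-proline 1, 2 and 3, against 208, 231 and 208 FPKM in PBS 1, 2 and 3. Psmb4 and Psmb3, also beta-ring subunits without a cutting site of their own, came next in level. Psmb4 had 182, 228 and 207 FPKM in the L-proline libraries, against 184, 224 and 183 FPKM in the PBS libraries. Psmb3 had 145, 170.5 and 165 FPKM in the L-proline libraries, against 135, 153 and 138 FPKM in the PBS libraries. Each of the 3 overlapped between groups.

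Of the catalytic subunits 0 of 3 passed. The chymotrypsin-like Psmb5 averaged 93.9 ± 9.80 FPKM in L-proline and 79.5 ± 14.2 FPKM in PBS (SD, n = 3 each; limma, adjusted p = 0.217). The caspase-like Psmb6 averaged 94.3 ± 6.98 FPKM in L-proline and 97.6 ± 7.78 FPKM in PBS. The trypsin-like Psmb7 averaged 155 ± 12.7 FPKM in L-proline and 147 ± 8.23 FPKM in PBS. All 3 overlapped between groups. Psmb2, with the most negative value of the core, averaged 72.4 ± 10.8 FPKM in L-proline and 84.1 ± 5.70 FPKM in PBS, which differ by -0.22 ± 0.11 on the log2 scale (SE; adjusted p = 0.191 by limma).

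Subunits that stand in equal numbers in the finished particle did not have equal transcript levels. Across the 14 core genes the mean over all libraries ran from 38.9 FPKM for Psma3 to 227 FPKM for Psmb1, a 5.83-fold range, and the beta genes had a higher median (151 FPKM) than the alpha genes (99.5 FPKM). The 17 regulatory particle genes left after the chaperones Psmd5, Psmd9 and Psmd10 are set aside spanned a 3.21-fold range, with Psmd2, a scaffold subunit that binds ubiquitin-like domains, highest at 137 FPKM. These levels are per kilobase of the gene models used by the authors. Psma3 had a recovered model length of 3325 bases, longest of the core genes, and a longer model lowers the FPKM for the same number of fragments.

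**Figure D2:**
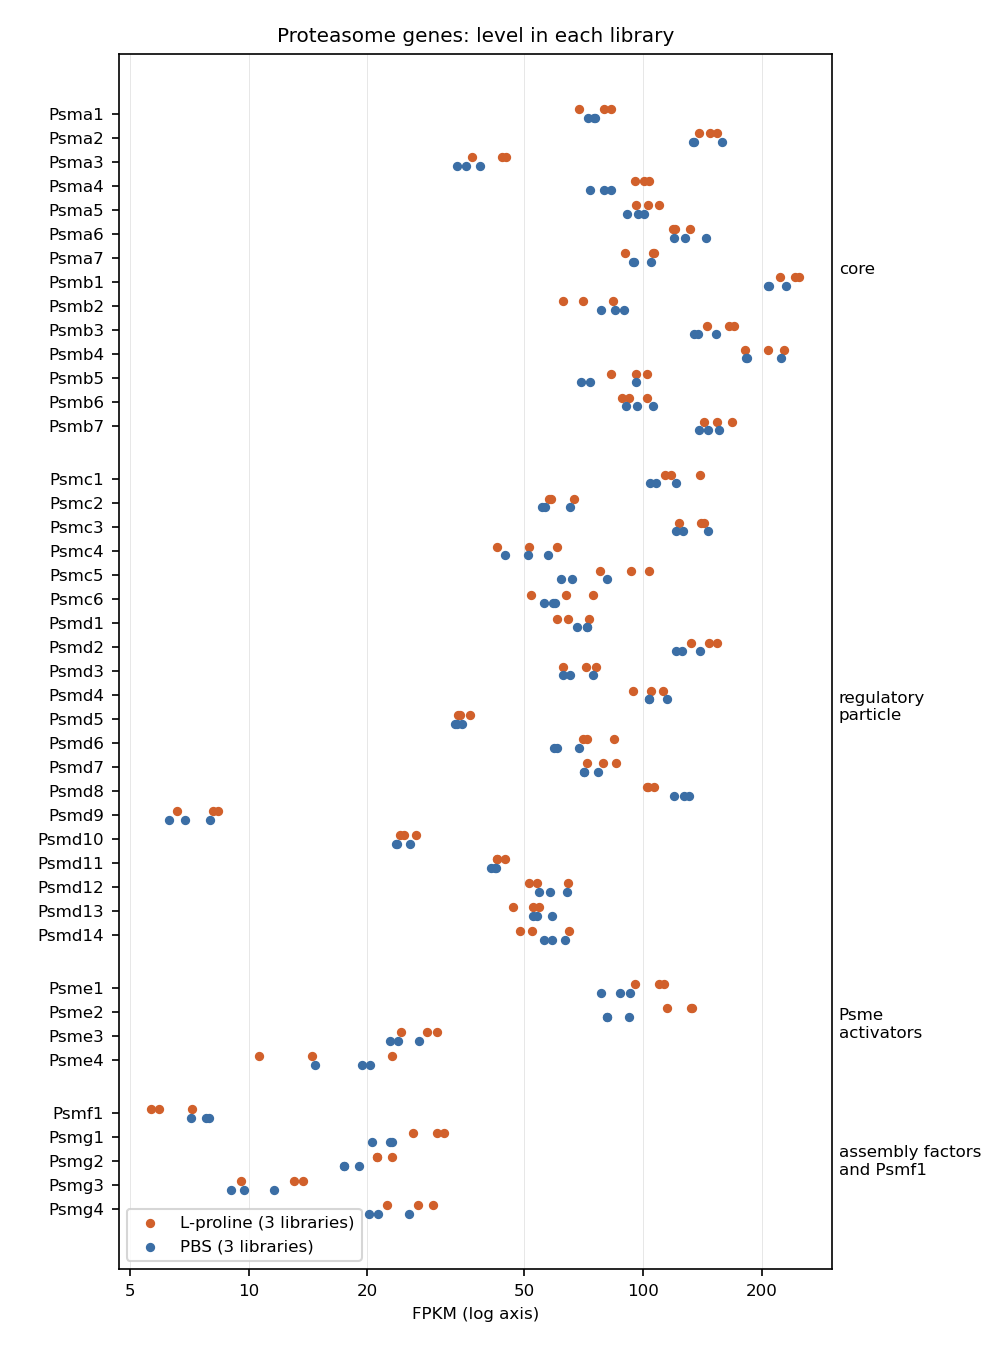
FPKM of each proteasome gene in every library on a log axis, L-proline points above PBS points within a row. Psmb1 is the highest row and Psmf1 the lowest, and the point clouds of the groups overlap for most genes; Psme2 and Psmd8 are among the rows where they do not.

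Of the regulatory particle, 0 of 20 genes rose and 1 fell. Psmd8, a subunit of its lid, had 103, 103 and 106 FPKM in L-proline 1, 2 and 3, against 127, 131 and 120.0 FPKM in PBS 1, 2 and 3. Every L-proline library lay below every PBS library. The log2 fold change was -0.27 ± 0.06 (adjusted p = 0.0208 by limma), and the adjusted p was 0.0646 with median-of-ratios scaling and 0.0586 to 0.0923 when L-proline 2, PBS 1, PBS 2 or PBS 3 was left out.

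All 6 ATPase genes had a positive log2 fold change, from 0.01 for Psmc4 to 0.39 for Psmc5, and 0 of 6 passed. Psmc5 averaged 91.4 ± 12.95 FPKM in L-proline and 69.7 ± 9.98 FPKM in PBS (limma, adjusted p = 0.0726), with L-proline 1 at 77.7 FPKM below PBS 2 at 80.9 FPKM. Among the Psmd genes, Psmd6, a lid subunit, did not overlap between groups, at 72.3, 84.6 and 70.3 FPKM in L-proline 1, 2 and 3, against 59.6, 68.8 and 60.5 FPKM in PBS 1, 2 and 3 (limma, adjusted p = 0.0884). Both are named after their values were seen. The separation of groups can be small in size: Psmd11 did not overlap either, with 43.2 ± 1.15 FPKM in L-proline and 41.9 ± 0.612 FPKM in PBS, a log2 fold change of 0.04. Psmd14, the deubiquitinating subunit, averaged 55.3 ± 8.41 FPKM in L-proline and 59.4 ± 3.66 FPKM in PBS. Psmd4, a ubiquitin receptor, averaged 104 ± 9.18 FPKM in L-proline and 108 ± 6.77 FPKM in PBS.

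Psmd5, Psmd9 and Psmd10 encode chaperones that hold ATPase subunits during assembly and leave the finished particle. They were the lowest of the 20, at 34.9, 7.66 and 25.2 FPKM in L-proline and 33.9, 7.06 and 24.3 FPKM in PBS, in that order of genes, and 0 of 3 passed. Psmd9 had 6.57, 8.09 and 8.33 FPKM in L-proline 1, 2 and 3, against 6.28, 7.99 and 6.90 FPKM in PBS 1, 2 and 3, and the groups overlapped.

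Among the activators, Psme2 rose, Psme1 lay just short of the threshold, and Psme3 and Psme4 overlapped between groups. Whether the activators differed from one another was tested only for Psme2 against Psme1, by the ratio given below. Psme2, the beta subunit of PA28, had 115, 132 and 133 FPKM in L-proline 1, 2 and 3, against 81.0, 92.3 and 80.9 FPKM in PBS 1, 2 and 3. The lowest L-proline library stood well above the highest PBS library. The mean was 1.50-fold higher, or 0.58 ± 0.09 on the log2 scale (SE; adjusted p = 0.00392 by limma), and Psme2 passed in 14 of 14 alternative settings.

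Psme1, the alpha subunit of the same ring, had 95.6, 110 and 113 FPKM in L-proline 1, 2 and 3, against 78.1, 92.4 and 87.2 FPKM in PBS 1, 2 and 3. Its groups did not overlap either. The log2 fold change was 0.30 ± 0.09 (adjusted p = 0.0539 by limma), and it passed in 6 of 14 alternatives, with an adjusted p between 0.00442 and 0.19 over them. The ratio of Psme2 to Psme1 was 1.21, 1.21 and 1.17 in L-proline 1, 2 and 3, against 1.04, 0.999 and 0.928 in PBS 1, 2 and 3. All L-proline ratios lay above all PBS ratios (exact permutation test, two-sided, p = 0.1). That is the smallest p that 3 against 3 allows, and it was not adjusted over the 4 ratios tested.

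Psme3, which forms a nuclear ring of its own, had 24.4, 30.1 and 28.3 FPKM in L-proline 1, 2 and 3, against 22.9, 27.1 and 23.9 FPKM in PBS 1, 2 and 3, which differ by 0.16 ± 0.10 on the log2 scale (SE; adjusted p = 0.304 by limma). Psme4, the large nuclear activator PA200, had 23.0, 14.5 and 10.6 FPKM in L-proline 1, 2 and 3, against 20.3, 14.8 and 19.4 FPKM in PBS 1, 2 and 3. Its spread was the widest of the proteasome genes: L-proline 1 was the highest of the 6 libraries and L-proline 3 the lowest. The log2 fold change was -0.22 ± 0.24 (adjusted p = 0.549 by limma). It became -0.50 without L-proline 1 (adjusted p = 0.0481) and 0.022 without L-proline 3 (adjusted p = 0.957), so no direction is given for it.

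The value of Psme2 carries an uncertainty of assignment. The mouse genome holds Psme2b, a near copy whose longest GENCODE M21 transcript was 99.4% identical to that of Psme2 over 794 aligned bases. Psme2b was listed at 34.6, 38.0 and 37.6 FPKM in L-proline 1, 2 and 3, against 23.1, 27.4 and 25.0 FPKM in PBS 1, 2 and 3, and it rose by 0.53 ± 0.08 on the log2 scale (limma, adjusted p = 0.00485). The sources used here do not say how the authors divided fragments between the copies. The fragments of both together numbered 5494, 5944 and 6245 in L-proline 1, 2 and 3, against 3891, 4292 and 3883 in PBS 1, 2 and 3, and Psme2 held 74.8% to 76.4% of them in every library. The difference between groups is also seen in the sum, which does not depend on how the counted fragments were divided between the copies. The sum does depend on whether fragments that match both copies were left out or counted for both. The sources used here do not state this either.

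**Figure D3:**
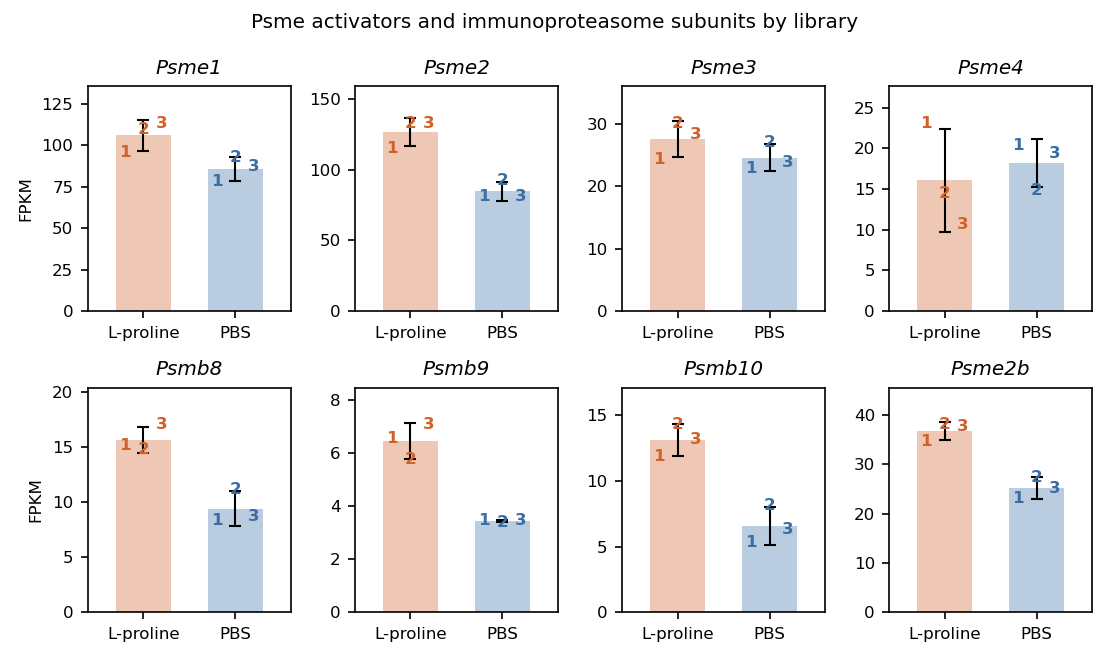
FPKM of the 4 Psme activators, the near copy Psme2b and the immunoproteasome subunits Psmb8, Psmb9 and Psmb10; bars are group means, error bars the SD of 3 libraries and digits the replicate numbers. L-proline libraries lie above all PBS libraries for every gene shown except Psme3 and Psme4.

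The immunoproteasome subunits, which are not among the 43, rose in the same libraries. Psmb8 had 15.2, 14.8 and 17.0 FPKM in L-proline 1, 2 and 3, against 8.35, 11.2 and 8.73 FPKM in PBS 1, 2 and 3 (log2 fold change 0.68 ± 0.12; limma, adjusted p = 0.00619). Psmb9 had 6.57, 5.76 and 7.07 FPKM in L-proline 1, 2 and 3, against 3.48, 3.39 and 3.47 FPKM in PBS 1, 2 and 3 (0.74 ± 0.09; limma, adjusted p = 0.00163). Psmb10 had 11.8, 14.3 and 13.2 FPKM in L-proline 1, 2 and 3, against 5.33, 8.15 and 6.31 FPKM in PBS 1, 2 and 3 (0.90 ± 0.14; limma, adjusted p = 0.00439). None of the 3 overlapped between groups.

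Their transcripts stayed well below those of the subunits they replace. Psmb8 stood at 16.8 ± 2.07% of Psmb5 in L-proline and 11.9 ± 0.156% in PBS (SD, n = 3 each). Psmb9 stood at 6.90 ± 1.10% of Psmb6 in L-proline and 3.55 ± 0.324% in PBS. Psmb10 stood at 8.44 ± 0.156% of Psmb7 in L-proline and 4.48 ± 0.799% in PBS. For each ratio every L-proline library lay above every PBS library (exact permutation test, two-sided, p = 0.1, the smallest possible). These p-values were not adjusted over the 4 ratios tested.

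Markers of immune cells were also examined, since such cells carry these subunits. Of 6 macrophage markers 3 were listed, summing to 6.52 to 7.72 FPKM in L-proline and 4.56 to 5.59 FPKM in PBS, and Ptprc, Adgre1 and C1qa were not listed. Within that sum Cd68 averaged 5.19 ± 0.297 FPKM in L-proline and 3.17 ± 0.536 FPKM in PBS (limma, adjusted p = 0.0101), and Lyz2 averaged 1.88 ± 0.524 FPKM in L-proline and 1.69 ± 0.508 FPKM in PBS (limma, adjusted p = 0.723). Of 4 T and NK cell markers 2 were listed, summing to 69.0 to 96.1 FPKM in L-proline and 31.5 to 32.1 FPKM in PBS, nearly all of it the chemokine Ccl5, which stromal cells can also make, while Cd3e and Nkg7 were not listed. Their part in the rise of Psme2 and the immunoproteasome subunits was not tested.

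Of 4 genes examined around the activators on chromosome 14, Irf9 passed, and Dcaf11, Emc9 and Rnf31 did not. In RefSeq order the stretch reads Dcaf11, Fitm1, Psme1, Emc9, Psme2, Rnf31, Irf9, and Fitm1 was not tested. Irf9, a component of the interferon-activated factor ISGF3, averaged 42.1 ± 2.46 FPKM in L-proline and 19.1 ± 1.94 FPKM in PBS (log2 fold change 1.10 ± 0.09; limma, adjusted p = 0.000405). Dcaf11 averaged 7.20 ± 0.632 FPKM in L-proline and 6.94 ± 0.514 FPKM in PBS (limma, adjusted p = 0.760). Emc9 averaged 10.2 ± 1.25 FPKM in L-proline and 12.4 ± 1.46 FPKM in PBS (limma, adjusted p = 0.144). Rnf31, part of a linear ubiquitin chain ligase, averaged 12.8 ± 0.528 FPKM in L-proline and 11.4 ± 0.269 FPKM in PBS (limma, adjusted p = 0.173). These neighbours were looked up after the values of Psme1 and Psme2 were known.

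All 4 assembly chaperones of the core had positive log2 fold changes, 0.22 to 0.38, against 40.6% of all genes tested. Of the 4, 2 rose, against 7.5% of all genes tested. All 4 had a model under 1.5 kb, and 12.9% of all tested genes of that length were called higher. Psmg1 and Psmg2 form a pair that guides the alpha ring together. Psmg1 had 26.1, 30.1 and 31.3 FPKM in L-proline 1, 2 and 3, against 23.0, 22.8 and 20.5 FPKM in PBS 1, 2 and 3 (log2 fold change 0.38 ± 0.09; limma, adjusted p = 0.0230). Psmg2 had 23.0, 21.2 and 21.2 FPKM in L-proline 1, 2 and 3, against 19.1, 17.4 and 17.5 FPKM in PBS 1, 2 and 3 (0.26 ± 0.08; limma, adjusted p = 0.0446). Neither overlapped between groups. These calls were close to the threshold: the adjusted p of Psmg1 was 0.0505 to 0.111 when L-proline 2, L-proline 3 or any PBS library was left out, and that of Psmg2 was 0.0613 to 0.181 without any 1 of the 6 libraries.

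Psmg3 and Psmg4, the second chaperone pair, did not pass. Psmg3 had 9.54, 13.7 and 13.02 FPKM in L-proline 1, 2 and 3, against 9.74, 11.6 and 9.01 FPKM in PBS 1, 2 and 3. Psmg4 averaged 26.2 ± 3.44 FPKM in L-proline and 22.3 ± 2.82 FPKM in PBS. Both overlapped between groups. Psmf1, known as the inhibitor PI31 of the isolated core, was the least abundant of all 43, with 5.91, 7.17 and 5.65 FPKM in L-proline 1, 2 and 3, against 7.13, 7.93 and 7.81 FPKM in PBS 1, 2 and 3. L-proline 2 lay above PBS 1, and the log2 fold change was -0.26 ± 0.10 (adjusted p = 0.113 by limma).

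The proteasome genes moved together from library to library within both groups. L-proline 2 was the highest L-proline library for 30 of 43 genes (69.8%, against 34% of all genes tested). L-proline 1 was the lowest for 29 (67.4%, against 42.1%). PBS 2 was the highest PBS library for 37 of 43 (86%, against 41.4% of all genes tested). PBS 1 was the lowest for 28 (65.1%, against 38.3%). For the core, PBS 2 was highest for 14 of 14 genes and L-proline 2 for 13 of 14. The median deviation of the 43 genes from their group mean was -0.11, 0.09 and 0.01 on the log2 scale in L-proline 1, 2 and 3, against -0.07, 0.10 and -0.04 in PBS 1, 2 and 3. In L-proline 1, L-proline 2, PBS 1 and PBS 2 the shift was larger in size than the median difference between L-proline and PBS of 0.06, and in L-proline 3 and PBS 3 it was smaller. With both libraries numbered 2 left out, an alternative chosen after seeing the data, 1 of the 43, Psme2, was higher and 0 were lower, while 6.14% of all genes tested were called in either direction.

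**Figure D4:**
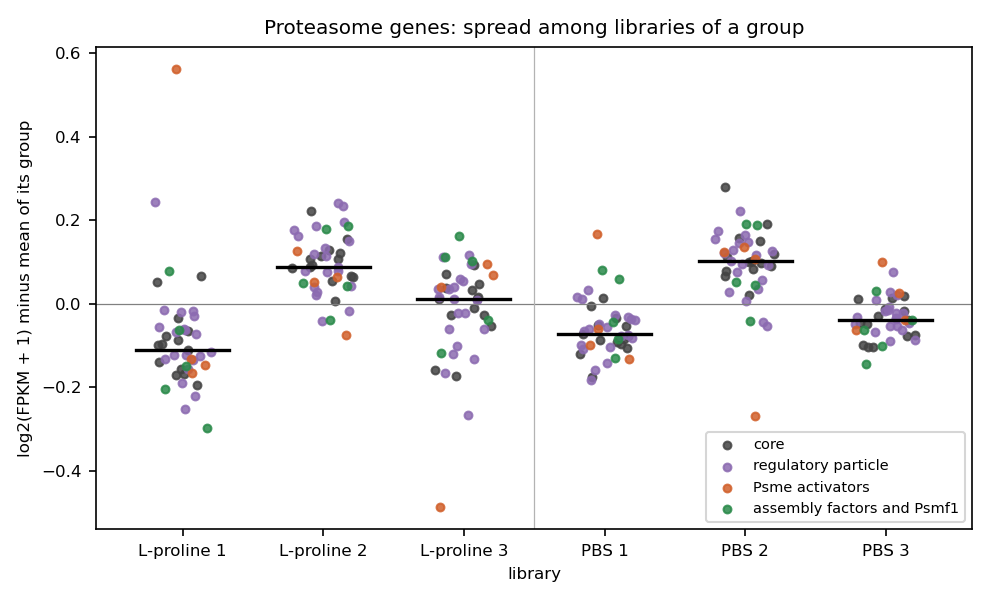
Deviation of each proteasome gene from the mean of its group, log2(FPKM + 1), in each library; horizontal bars are medians over the 43 genes. Libraries L-proline 2 and PBS 2 sit above zero and L-proline 1 and PBS 1 below it; the outlying activator point at 0.56 in L-proline 1 and -0.49 in L-proline 3 is Psme4.

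Gene length moved with this spread. Of the 43 genes, 23 had a model under 1.5 kb, 19 lay between 1.5 and 5 kb, and Psme4 at 7649 bases was the only longer one. Over all 1323 tested genes under 1.5 kb the median deviation was -0.08, 0.05 and 0.04 in L-proline 1, 2 and 3, against -0.04, 0.07 and -0.03 in PBS 1, 2 and 3. Over the 3325 genes of 5 kb and over it was 0.08, -0.01 and -0.06 in L-proline 1, 2 and 3, against 0.04, -0.07 and 0.03 in PBS 1, 2 and 3. The signs were opposite in every library. Psme4 deviated in the same direction as the long genes in every library, by 0.56, -0.08 and -0.49 in L-proline 1, 2 and 3, against 0.17, -0.27 and 0.10 in PBS 1, 2 and 3.

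The difference between groups also varied with length. The median log2 fold change was 0.05 for all tested genes under 1.5 kb, -0.04 for those between 1.5 and 5 kb and -0.12 for longer ones, and the share called higher was 12.9%, 8.32% and 3.91%. For the proteasome genes it was 0.14 over the 23 short genes and 0.05 over the 19 of middle length. All 4 genes that rose were under 1.5 kb. The part of length in the differences between groups was not tested.

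**Figure D5:**
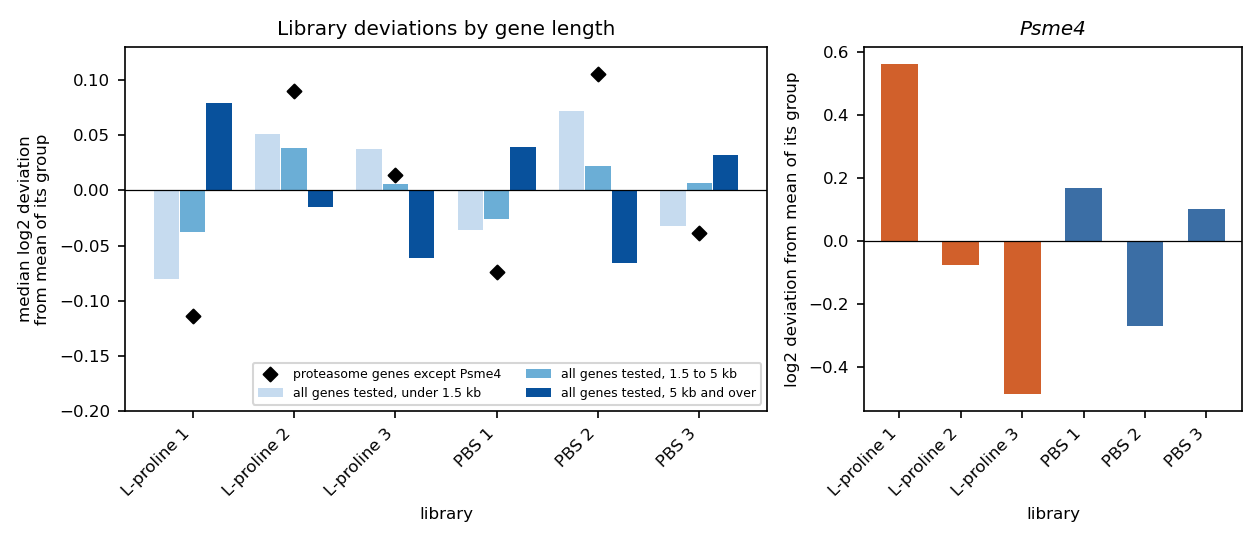
Left, median log2 deviation from the group mean over all tested genes in 3 length classes (bars) and over the proteasome genes except Psme4 (diamonds), by library; right, the same deviation for Psme4. Short and long genes deviate in opposite directions, the diamonds fall on the side of the short genes in each library, and Psme4 on the side of the long genes.

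Of 33 further genes that work with the proteasome, 32 were listed and tested; 5 rose (15.6%, against 7.5% of all genes tested) and 0 fell (against 12.1%), and the median log2 fold change was 0.06. Of the 5, 3 were the immunoproteasome subunits, and without these 2 of 29 rose (6.9%). The list holds subunits and partners outside the Psm names, ubiquitin genes, shuttles and regulators. Besides the 3 immunoproteasome subunits, those that rose were Nfe2l1 and Zfand2a. Nfe2l1, the transcription factor known to raise proteasome genes when proteasome activity is short, had 105, 95.9 and 114 FPKM in L-proline 1, 2 and 3, against 79.9, 79.2 and 75.0 FPKM in PBS 1, 2 and 3 (log2 fold change 0.42 ± 0.08; limma, adjusted p = 0.00924; 0.0538 without PBS 3). Zfand2a, a stress-induced gene whose protein binds the regulatory particle, had 9.62, 11.6 and 10.2 FPKM in L-proline 1, 2 and 3, against 7.26, 6.99 and 6.81 FPKM in PBS 1, 2 and 3 (0.51 ± 0.09; limma, adjusted p = 0.00674). The groups overlapped for neither.

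The partners of Nfe2l1 did not pass. Ngly1, the glycanase that processes its protein, averaged 11.1 ± 1.11 FPKM in L-proline and 8.83 ± 0.459 FPKM in PBS (limma, adjusted p = 0.0603). The groups did not overlap for Ngly1. Ddi2, the protease that cleaves the Nfe2l1 protein, averaged 3.27 ± 0.289 FPKM in L-proline and 3.12 ± 0.104 FPKM in PBS. The related factor Nfe2l2 averaged 50.7 ± 9.59 FPKM in L-proline and 43.0 ± 3.97 FPKM in PBS (limma, adjusted p = 0.269). Pomp, which matures the core particle, averaged 106 ± 10.8 FPKM in L-proline and 93.4 ± 8.89 FPKM in PBS. Vcp, the unfoldase that hands ubiquitinated proteins on, averaged 128 ± 7.12 FPKM in L-proline and 124 ± 9.57 FPKM in PBS. Of the 32 genes, 13 had a negative log2 fold change. Ecpas, which binds the proteasome as a scaffold, averaged 5.61 ± 1.36 FPKM in L-proline and 8.15 ± 1.11 FPKM in PBS (limma, adjusted p = 0.0682). Uba6, a ubiquitin-activating enzyme, averaged 4.09 ± 2.34 FPKM in L-proline and 6.18 ± 1.74 FPKM in PBS (limma, adjusted p = 0.254). Ubqln1, a shuttle that brings ubiquitinated proteins to the proteasome, averaged 39.5 ± 2.32 FPKM in L-proline and 44.8 ± 1.05 FPKM in PBS, and its groups did not overlap (limma, adjusted p = 0.108). These 8 were named after their values were seen.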

How the data were processed

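The authors deposited 1 table of FPKM values per gene, per the file headers; GRCm39, HTSeq 0.13.5 and HISAT2 stand in the submitters' processing notes, with no role stated. The annotation and the choice of listed genes are not given in the sources used here. Per the labels' protocols, polyadenylated RNA was made into NEBNext Ultra libraries and sequenced in pairs. FPKM is relative to the other genes of a library.

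Whole fragments were recovered by solving library totals from 13 mitochondrial genes, whose values lay within 2.03e-05 of whole numbers; 14408 of 14408 genes came out whole within 0.01. The proteasome genes were backed by 288 to 18854 fragments per library. In a gene of 1 kb, 0 fragments would allow up to 0.08 to 0.0857 FPKM (3 fragments, counting error only).

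Differences, L-proline minus PBS, were tested with limma 3.58.1 in R 4.3.3 on log2(FPKM + 1), trended variance, two-sided, over genes with a mean of at least 1 FPKM, and checked on simulated data; the scale understates changes of low genes. Values are means ± SD, log2 fold changes ± SE. The members and lists were chosen with earlier results of these data known. Named with values in each library are all Psme genes, Psmf1, genes past the threshold, the 3 highest and 3 lowest, and Psmb8, Psmb9 and Psmb10; up to 10 pathway genes past the threshold are named. Genes outside this are given for their roles or were named after their values were seen, Psmb2 and Psmd11 among the latter. Alternatives were another pseudocount, no filter, 2 scalings, sample weights, voom on the recovered fragments, a replicate block and leaving out each library.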

Additional observations from a re-analysis of the deposited data

How the results depend on the processing

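Psme2, Psme2b, Irf9, Psmb8, Psmb9 and Psmb10 passed in 14 of 14 alternatives. The count of proteasome genes that were higher, 4, became 7 with median-of-ratios scaling, 7 with quantile normalization and 19 with sample weights, where 44.5% of all genes passed; it ran from 1 to 6 when 1 library was left out, and was 1 without both libraries numbered 2. The count of lower genes, 1, became 0 with median-of-ratios scaling, ran from 0 to 2 when 1 library was left out and was 0 without both libraries numbered 2. The 5 further genes that were higher became 10 with sample weights, and the 0 lower became 2 with sample weights and ran from 0 to 2 when 1 library was left out. With sample weights the median log2 fold change was 0.17 for the core and 0.30 for the assembly factors with Psmf1, and the assembly factors ran from 0.17 to 0.32 when 1 library was left out. The log2 fold change of Psme4 turned to 0.022 without L-proline 3, and ran from -0.50 to 0.022 when 1 library was left out. That of Psmb4 turned to -0.016 without L-proline 2, and ran from -0.016 to 0.16 when 1 library was left out. The causes were not tested.

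Replicate numbers are shared by the titles, but whether they pair the libraries is not settled. The correlation of deviations from group means over all tested genes was 0.651 for number 1, 0.416 for number 2 and -0.348 for number 3. Between libraries of different numbers it ran from -0.75 to 0.525. Deviations from a mean of 3 libraries depend on one another, so these correlations cannot decide the pairing. With the replicate number as a block, 7 proteasome genes were higher and 1 lower, where 22.7% of all genes passed (908 higher and 1475 lower), and 5 further genes were higher and 1 lower. Each proteasome gene had at least 288 fragments in every library, and 3 libraries per group limit the precision of every difference.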
